A study of Mus musculus with 4 samples.

Results

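DNA methylation at 9 genes of aldehyde and retinoid metabolism was followed in the epithelium of the mouse colon between birth and weaning age. The genes were Aldh1b1, Aldh1a1, Aldh1a2, Aldh1a3, Rdh10, Rbp2, Crabp2, Rara and Rarb, 9 of the 22372 protein-coding genes annotated in GENCODE M1 on the mm9 build. Aldh1b1 was chosen because it holds the longest run of bins that lost methylation in intestinal stem cells (ISCs), and the others were added as genes of the same family or pathway. The window of each gene reached from 5 kb upstream to 2 kb past its end, and the 9 windows held 1368 of the 4076373 autosomal 200-bp bins that could be tested in the series. The assay was bisulfite sequencing of the whole genome, which reads unmethylated cytosines as T and methylated ones as C, and the level of a region is the percent of its calls that were methylated.

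Colonic cells came from mice labelled C57, from a cross of Lgr5-EGFP-CreER mice, which the study had backcrossed to C57BL/6 J, with wild-type C57 mice. This allele expresses green fluorescent protein and an inducible Cre from the regulatory sequences of the stem cell gene Lgr5. Reporter-positive cells were taken as ISCs and EpCAM-positive cells without the reporter as differentiated epithelium, at postnatal day 0 (P0) and day 21 (P21). The reporter is known to be silent in part of the crypts, so the reporter-negative sort can hold stem cells. Each of the 4 groups had 1 library from pooled mice, with litters pooled at P0 and reporter-positive offspring at P21. It is not stated whether the P0 litters were limited to carriers, so the reporter-negative cells of that age may include cells of mice without the allele. With 1 library a group, every test below compares 2 libraries and not 2 conditions. Libraries held between 1023427645 and 1188114423 calls, and the median tested bin of the whole genome had 55 calls for ISCs and 81 for differentiated cells among the P0 libraries, and 58 and 68 calls among the P21 libraries. Where values are paired in this way, ISCs come first and differentiated cells second. Intervals are 95% intervals (Wilson for a level, Newcombe for a difference) and cover counting error only, since amplified reads without molecular identifiers are not independent molecules. Calls at neighbouring CpGs of 1 read are not independent either, so p-values are too small. Promoters of the 8 listed colonic epithelial markers had median levels from 0.987% to 2.69% over the libraries, with Krt20 the exception at 51.0% to 56.0%, and those of the 5 listed leukocyte markers (Ptprc, Cd3e, Itgam, Laptm5 and Cd52) had medians from 71.2% to 76.6%. The medians were 2.62% to 5.80% for the 3 stem cell markers, 13.5% to 18.8% for the 5 fibroblast markers, which ranged from 0.245% (Pdgfra) to 90.6% (Dcn), and 67.5% to 72.5% for the 4 endothelial markers, of which Kdr was low at 1.58% to 3.08%.

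Vitamin A (retinol) is converted in cells to retinoic acid in a pair of oxidation steps. Rdh10 is the retinol dehydrogenase that makes retinal in the first step, and the retinal dehydrogenases Aldh1a1, Aldh1a2 and Aldh1a3 make retinoic acid in the second. Aldh1b1 is a related mitochondrial aldehyde dehydrogenase that acts on acetaldehyde and other aldehydes, and it is known as a protein of stem-like and tumour cells in the colon. Rbp2 binds retinol in absorptive enterocytes, Crabp2 carries retinoic acid to the nucleus, and the receptors Rara and Rarb are transcription factors that retinoic acid activates at direct repeats in DNA. In the gut, retinoic acid is known for its part in epithelial differentiation and in the homing of lymphocytes. DNA methylation near a gene start commonly goes with a silent gene, whereas bodies of active genes are usually methylated. Expression was not measured in these libraries.

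Sequences of 6 bins called in the same direction in both populations are shown first, as examples of the changes at 4 of the genes. They are mm9 reference sequence, 200 bases each, written 5′ to 3′ on the strand of the gene, with every CpG in capitals. Each is the bin with the largest difference in differentiated cells among bins called in the same direction in both populations, with at least 3 CpGs and 50 calls in each library. For Aldh1b1 the bin was chosen within each place. For the other genes it was chosen over the whole window, among gains for Aldh1a3 and Rbp2 and among losses for Rarb. Aldh1a3 and Rbp2 also held losses with larger changes in differentiated cells, which are described with these genes. Aldh1b1 lies on chromosome 4 (45811894 to 45817476, forward strand) and is represented by a bin upstream of the gene (chr4:45807601-45807800), a bin in intron 1 (chr4:45814401-45814600) and a bin in the coding part of exon 2 (chr4:45816001-45816200).
Aldh1b1 upstream: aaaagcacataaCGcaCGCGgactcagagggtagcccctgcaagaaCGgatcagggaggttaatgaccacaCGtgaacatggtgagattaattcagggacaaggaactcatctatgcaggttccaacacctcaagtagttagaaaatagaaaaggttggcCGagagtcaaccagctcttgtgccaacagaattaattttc
Aldh1b1 intron 1: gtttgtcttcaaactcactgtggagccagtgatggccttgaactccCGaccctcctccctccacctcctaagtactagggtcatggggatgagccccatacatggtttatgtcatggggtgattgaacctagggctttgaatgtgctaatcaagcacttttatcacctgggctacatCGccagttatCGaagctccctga
Aldh1b1 exon 2: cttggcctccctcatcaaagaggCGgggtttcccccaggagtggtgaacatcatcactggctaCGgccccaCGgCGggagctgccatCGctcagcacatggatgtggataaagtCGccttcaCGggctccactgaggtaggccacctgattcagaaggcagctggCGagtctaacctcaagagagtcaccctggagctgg
The bin in front of Aldh1a3 (chr7:73573201-73573400, reverse strand) and the bin over exon 2 of Rbp2 (chr9:98399201-98399400, forward strand) stand for gains, and the bin in intron 1 of Rarb (chr14:17517401-17517600, reverse strand) for a loss.
Aldh1a3 upstream: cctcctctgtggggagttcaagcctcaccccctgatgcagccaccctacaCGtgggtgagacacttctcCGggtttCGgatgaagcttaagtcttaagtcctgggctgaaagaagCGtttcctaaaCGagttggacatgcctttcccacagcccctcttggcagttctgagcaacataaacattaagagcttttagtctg
Rbp2 exon 2: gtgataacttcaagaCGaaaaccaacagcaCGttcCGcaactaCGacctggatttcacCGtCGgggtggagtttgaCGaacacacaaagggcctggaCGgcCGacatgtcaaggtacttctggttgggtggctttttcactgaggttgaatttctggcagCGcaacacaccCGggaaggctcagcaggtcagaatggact
Rarb intron 1: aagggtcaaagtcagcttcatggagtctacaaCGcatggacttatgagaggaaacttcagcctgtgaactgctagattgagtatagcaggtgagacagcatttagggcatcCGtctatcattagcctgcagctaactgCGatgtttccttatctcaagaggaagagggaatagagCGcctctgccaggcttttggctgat

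Aldh1b1 was less methylated at P21 than at P0, in either population, upstream of the gene, from intron 1 through most of exon 2 in 1 unbroken run, and just past its end. Between the losses upstream and this run lay, among other bins, the 2 bins over exon 1, which had 0% to 0.598% in all libraries. The gene (ENSMUSG00000035561.5) has 2 exons, and its whole coding sequence (45815336 to 45816892) lies in the last one (45815327 to 45817476). The ISC values describe the change on which the gene was chosen. They are given without a p-value, and counts of called ISC bins and regions of Aldh1b1 were fixed by that choice and are a description. The differentiated libraries took no part in that choice, and their change was tested. It is not stated outright whether both populations of an age came from the same pool of mice, and a difference between pools would then appear in both.

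In the last exon of Aldh1b1, with 68 CpGs, ISCs had a level of 89.9% (88.3 to 91.3%, 1549 calls) and differentiated cells one of 90.3% (89.3 to 91.2%, 3552 calls) at P0. At P21 ISCs had 53.7% (51.5 to 56.0%, 1869 calls) and differentiated cells 65.1% (63.4 to 66.7%, 3201 calls). Both libraries of P0 were thus high and nearly equal, both libraries of P21 were lower, and no interval of one age overlapped one of the other. The change in differentiated cells was -25.2 points (-27.1 to -23.3), with an adjusted p of 4.68e-140 by Fisher's exact test over the last exons of 15512 genes. Of these genes, 81 had a lower difference. Among last exons of all genes, 6.11% were called in differentiated cells (adjusted p below 0.05 and more than 10 points). In ISCs, where 6.42% of all last exons were called by the same limits, the difference was -36.2 points. Over all genes the median last exon stood between 86.0% and 86.4% in every library and moved by 0.20 points in differentiated cells.

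The coding exon of Aldh1b1 was also less methylated in ISCs than in differentiated cells at P21. Differentiated minus ISC was 11.4 points (8.58 to 14.2) at P21 and 0.358 points (-1.37 to 2.21) at P0. At P21 this comparison uses the ISC library on which the gene was chosen, so it is a description, and 2.16% of all last exons were called in it. By strand, the P21 level was 57.4% on the forward strand and 49.1% on the reverse strand in ISCs, and 63.8% and 67.1% in differentiated cells. Differentiated cells were higher on either strand. At P0 the strands lay between 89.7% and 91.1% in both populations.

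The exon 2 bin of Aldh1b1 shown above had P0 levels of 85.2% and 92.8%, and 23.5% and 45.5% at P21. All of its 8 CpGs were lower at P21 in differentiated cells and all 8 in ISCs. Single CpGs spanned 28.6% to 75.9% in differentiated cells at P21 and 87.2% to 100% at P0, so the loss was uneven from one CpG to the next, without overlap between the ages.

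Upstream of the coding exon, the body of Aldh1b1 (intron 1 beyond 1 kb from the start, with 33 CpGs) had P0 levels of 42.9% (38.8 to 47.1%) and 32.5% (29.6 to 35.5%). The P21 levels were 9.13% (7.20 to 11.5%) and 8.71% (6.99 to 10.8%). At P21 the intervals of the populations overlapped. The change in differentiated cells was -23.8 points (-27.3 to -20.3, adjusted p = 2.50e-35 by Fisher's exact test over 17461 genes), and 28 genes had a lower difference. The body was called in 2.45% of genes in differentiated cells and likewise in 2.45% in ISCs, where the difference of Aldh1b1 was -33.8 points. Differentiated minus ISC in the body of Aldh1b1 was -10.4 points (-15.5 to -5.33) at P0 and -0.425 points (-3.36 to 2.42) at P21. Both use ISC libraries on which the gene was chosen and are a description, in comparisons that called 1.89% and 1.4% of bodies. With each CpG weighted equally they were -7.00 and 1.71 points.

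The promoter of Aldh1b1 (1 kb to either side of the start, 42 CpGs, with a CpG island) was low throughout. It had 8.67% and 4.19% at P0, and 0.907% and 0.970% at P21. These levels weight each CpG by its calls, and the mean with each CpG weighted equally was 7.17% and 8.05% at P0, and 1.32% and 3.71% at P21. The change in differentiated cells was -3.22 points (-4.36 to -2.12, adjusted p = 6.84e-07 by Fisher's exact test), under the 10-point limit. Promoters past that limit made up 4.16% of the genes in ISCs and 3.64% in differentiated cells.

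**Figure D1:**
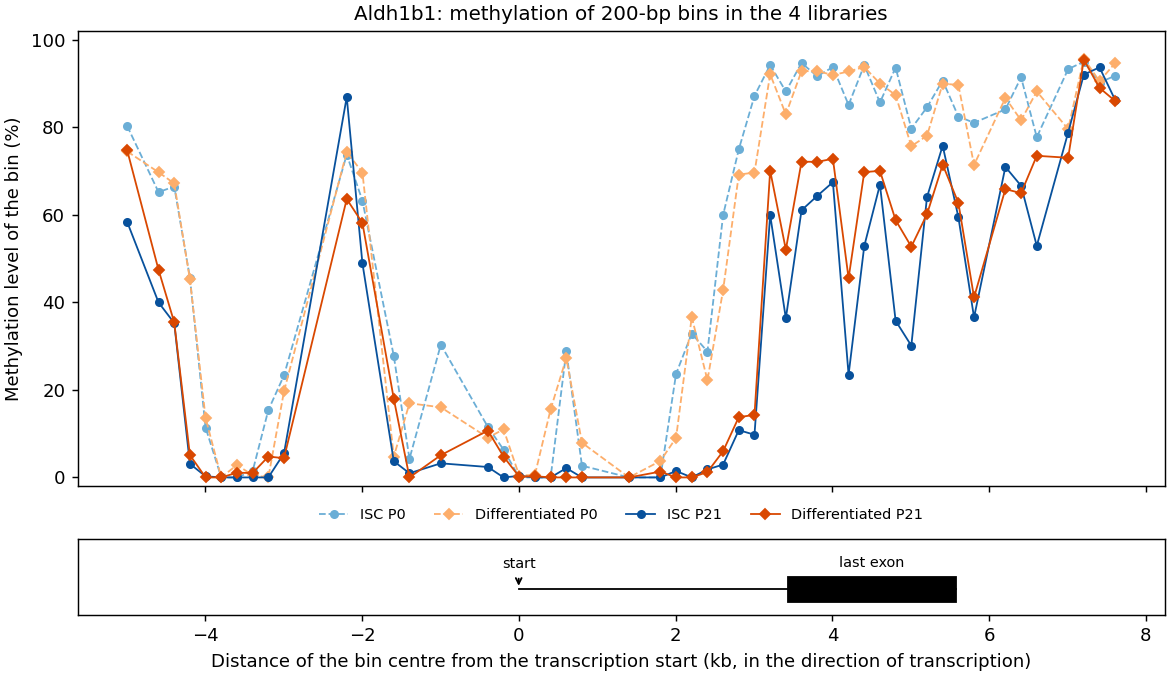
Methylation level (percent of calls) of each tested 200-bp bin of the Aldh1b1 window against the distance of its centre from the transcription start in kb, for the 4 libraries, with lines joining tested bins and the gene with its last exon drawn underneath. Bins around the start were low in every library. In the last exon both P0 libraries were high (89.9% and 90.3% over the exon) and both P21 libraries lower (53.7% and 65.1%).

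Bin by bin, 51 bins of the Aldh1b1 window were tested. Called losses (adjusted p below 0.05 over all bins and more than 15 points) numbered 22 of 51 in differentiated cells, where 1.86% of all bins were called as losses and 0.992% as gains. In ISCs, where 1.48% of all bins were called as losses and 1.07% as gains, they numbered 26 of 51, a count that follows from the choice of the gene and is not read against that share. No bin of the window was called as a gain in either population. Losses in both populations numbered 20, which is likewise a description. Of the 51 bins 44 were lower and 5 higher at P21 in differentiated cells, and the median difference was -16.7 points, against -0.0744 points over all bins. By place, the losses in differentiated cells were 2 of 14 bins upstream of the promoter, 1 of 8 promoter bins, 6 of 9 other intron bins, 10 of 12 bins overlapping exon 2 and 3 of 8 downstream bins.

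The losing run in ISCs (17 bins, chr4:45813801-45817200) is what the choice rested on, and the next longest losing runs of the genome, near Adck3 and Nqo1, held 10 and 9 bins. In differentiated cells the run covered 15 bins, from 45814001 to 45817000. Its pooled levels were 81.6% and 84.6% at P0, and 42.5% and 57.0% at P21. A separate pair of adjacent losing bins lay more than 4 kb upstream (45807401 to 45807800), called in both populations. It had 53.4% (49.3 to 57.6%) and 55.0% (50.9 to 59.1%) at P0, and 15.9% (12.8 to 19.7%) and 17.7% (14.9 to 21.0%) at P21. Here the intervals of the populations overlapped at each age. The upstream bin shown above belongs to that pair, and its level in differentiated cells fell from 45.3% to 5.11%, with 5 of its 6 CpGs lower. Downstream, the bins from 45818001 to 45818400 were losses in differentiated cells, from 84.1% (81.0 to 86.8%) to 65.4% (61.2 to 69.3%), and ISCs had 87.6% and 68.4%.

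Between the populations, the window of Aldh1b1 held no called bin at P0 and 3 at P21, all higher in differentiated cells and all in exon 2. The adjacent bins from 45816001 to 45816400 had P21 levels of 39.1% (34.7 to 43.7%) and 60.0% (56.7 to 63.2%). At P21, 0.0711% of all bins were called as higher and 0.111% as lower in differentiated cells, and at P0 0.288% and 0.22%. The 3 bins again rest on the ISC library used in the choice. At P21 the calls between the populations over all 9 genes, 6 in number, became 1 with calls thinned to the lowest library and 0 with 1 CpG per bin, so at least 2 of these 3 were lost in the first case and all 3 in the second.

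**Figure D2:**
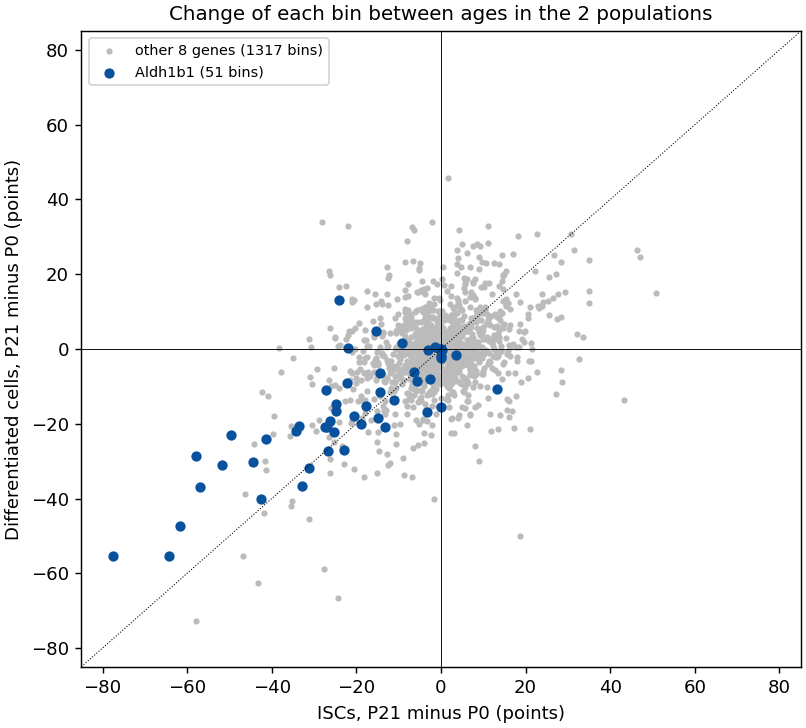
Difference between P21 and P0 in points for each tested bin, in ISCs on the horizontal axis and in differentiated cells on the vertical axis, with the 51 bins of Aldh1b1 in blue and the 1317 bins of the other genes in grey, and a dotted line where both changes are equal. The Aldh1b1 bins lie mostly in the lower left part, where both populations lost methylation, and none is a gain in both populations.

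Across the 1317 bins of the other 8 genes the median difference was -0.0761 points in ISCs and 0 points in differentiated cells. Losses numbered 30 (2.28%) in ISCs and 23 (1.75%) in differentiated cells, and gains 17 (1.29%) and 33 (2.51%). Over all bins the shares were 1.48% and 1.86% for losses and 1.07% and 0.992% for gains, so losses in ISCs and gains in differentiated cells were above the share of all bins, and nothing is read from the other 2 counts, which were near it. With at least 4 CpGs per bin, losses in ISCs were 10 of 476 bins, where 2.13% of all bins were losses, so the higher share of losses did not hold there. With more than 30 points, gains in differentiated cells were 4 of 1317 bins, where 0.249% of all bins were gains. That count was near the share of all bins, so the higher share of gains did not hold there. Of the 33 gains in differentiated cells, 17 lay in the window of Rara. Losses in both populations numbered 14 and gains in both 7, and no bin was called in opposite directions. The share of all bins called in both populations or in opposite directions is not given here, so nothing is read from these counts. The changes of the populations had a Pearson correlation of 0.382 across these bins and of 0.267 across all bins, which describes neighbouring bins from the same libraries and not replicates. With 1 CpG per bin, an alternative chosen after the data were seen, called bins over all 9 genes numbered 13 and not 73 in ISCs, where Aldh1b1 held 10 losses, and 29 and not 78 in differentiated cells, where it held 15 losses. The 1096 bins of the other 8 genes then held 1 loss and 2 gains in ISCs, beside 0.460% losses and 0.193% gains over all bins, and 3 losses and 11 gains in differentiated cells, beside 0.888% and 0.324%.

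**Figure D3:**
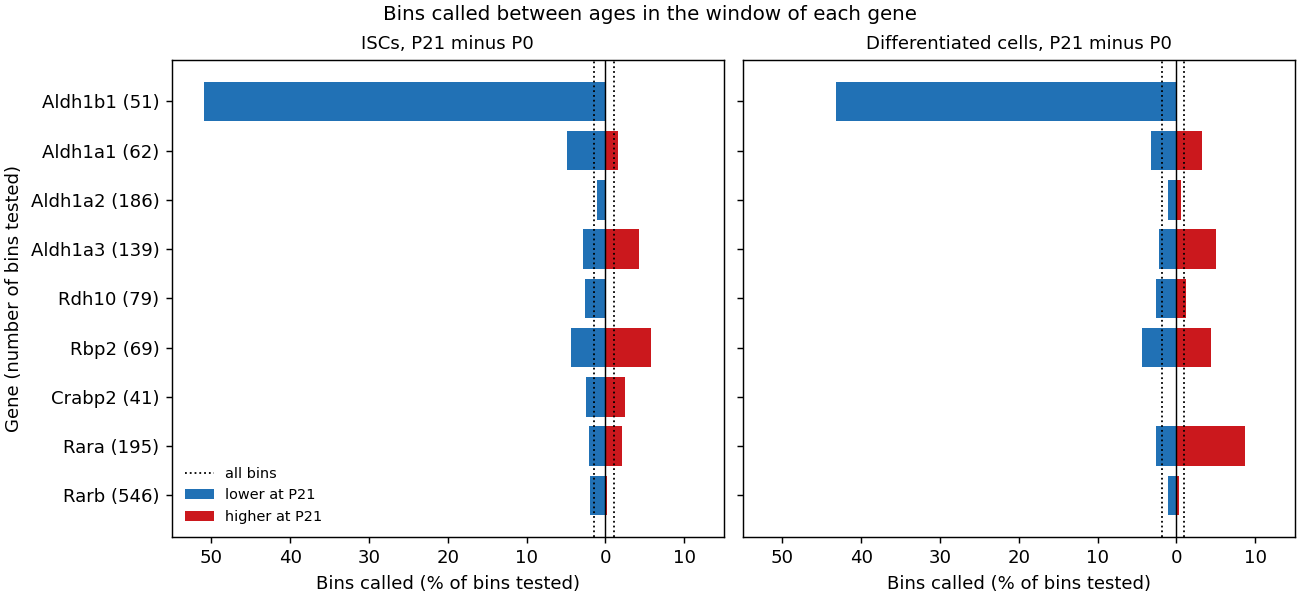
Bins called between P0 and P21 in percent of the bins tested in the window of each gene (number of bins in brackets), losses to the left and gains to the right, for ISCs and differentiated cells, with dotted lines at the percent over all bins. Aldh1b1 stands at 26 of 51 bins in ISCs and 22 of 51 in differentiated cells, and the bar of Rara for gains in differentiated cells stands for 17 of 195 bins. The ISC bar of Aldh1b1 follows from the choice of the gene and is not read against the dotted line.

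Among the retinal dehydrogenases, the Aldh1a1 promoter lost methylation in both populations. Aldh1a1 (chromosome 19, 20676451 to 20717952, forward strand) has no CpG island in its window. Its promoter, with 15 CpGs, had 36.7% (31.2 to 42.4%, 281 calls) and 25.2% (19.8 to 31.7%, 202 calls) at P0. At P21 it had 15.3% (11.7 to 19.8%, 307 calls) and 14.7% (10.3 to 20.4%, 191 calls). The change was -21.3 points (-28.2 to -14.3, adjusted p = 1.28e-07 by Fisher's exact test over 20420 promoters) in ISCs, and 85 promoters had a lower difference. In differentiated cells it was -10.6 points (-18.3 to -2.66, adjusted p = 0.0470 by Fisher's exact test), close to both limits. Differentiated minus ISC was -11.4 points at P0 (adjusted p = 0.0266 by Fisher's exact test), in a comparison that called 4.86% of promoters. That pooled difference goes with where the calls fell. At P0 the bin over exon 1, low at 4.76% and 7.07%, held 42 of the 281 calls in ISCs and 99 of the 202 in differentiated cells, and none of the 5 promoter bins was called between the populations. With each CpG weighted equally, the promoter had 42.9% and 42.1% at P0 and 20.1% and 19.1% at P21, with no test, so the populations lay within 1 point of each other at either age and changed by -22.8 and -23.0 points. These means rest on few calls in differentiated cells. There the promoter bins other than that over exon 1 held 11 to 17 calls at P0 and 12 to 22 at P21. None of the promoter bins was called between the ages in these cells. From the pooled calls, the ISC change minus the differentiated change was -10.8 points (-21.2 to -0.312, adjusted p = 0.181 by a Wald test on binomial counts), a test that called 2.54% of all promoters, 1% of bodies and 2.53% of last exons. It called 2 regions of the 8 genes, the promoters of Rbp2 and Rarb.

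Inside Aldh1a1 single bins changed strongly and in both directions. A bin of intron 2 (20687401 to 20687600) had 89.0% and 82.7% at P0 and 47.1% and 38.9% at P21, a loss in both populations (adjusted p = 1.32e-07 and 1.42e-10 by Fisher's exact test over all bins). A bin of intron 1 (20679801 to 20680000) went the other way, from 19.7% and 33.7% to 66.7% and 58.3%. Each of these bins had 4 CpGs. Besides these, the 62 bins of Aldh1a1 included 2 called losses in ISCs, both in the promoter, and 1 loss and 1 gain in differentiated cells. In all, 3 losses and 1 gain were called in ISCs, beside 1.48% and 1.07% over all bins. Differentiated cells had 2 losses and 2 gains, beside 1.86% and 0.992%. The last exon of Aldh1a1 was not tested, because differentiated cells at P0 had 29 calls there.

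Aldh1a2 (chromosome 9, 71063596 to 71144050) had no region called between the ages. Its promoter, with 156 CpGs, had 8.82% and 3.79% at P0 and 8.71% and 4.75% at P21 in ISCs and differentiated cells, when calls were pooled. No promoter bin of Aldh1a2 was called between the populations, and the promoter as a whole was not called at either age, where 3.49% of all promoters were called at P21. At P0 ISCs had 1871 calls and differentiated cells 5115. Of these the highly methylated bin from 71062601 to 71062800 held 56 and 62. The next bin, up to 71063000, had levels of 59.5% and 52.6% and held 158 and 192 calls. Both bins thus took a larger share of the calls in ISCs. With each CpG weighted equally the promoter had 4.04% and 3.68% at P0, and 5.10% and 3.82% at P21. The body of Aldh1a2 had 74.9% and 73.1% at P0 and 69.7% and 70.4% at P21. The differences of -5.25 points in ISCs (-6.39 to -4.12) and -2.70 points in differentiated cells (-3.70 to -1.69) were also under that limit. Of the 186 bins in its window, 2 were called as losses in each population and 1 as a gain in differentiated cells, and the losses were below the 1.48% and 1.86% of all bins. No bin of Aldh1a2 was called in both. The last exon, with 11 CpGs, had 57.8% and 65.2% at P0 and 60.9% and 52.2% at P21. The difference in differentiated cells was -13.0 points (-22.7 to -3.03, adjusted p = 0.0639 by Fisher's exact test), against 3.12 points (-6.45 to 12.6) in ISCs. The ISC change minus the differentiated change was 16.0 points (2.25 to 29.8, adjusted p = 0.189 by the Wald test on binomial counts) and was not called. With each CpG weighted equally, and with no test, both populations were lower at P21, by -2.35 points in ISCs and -17.8 points in differentiated cells.

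**Figure D4:**
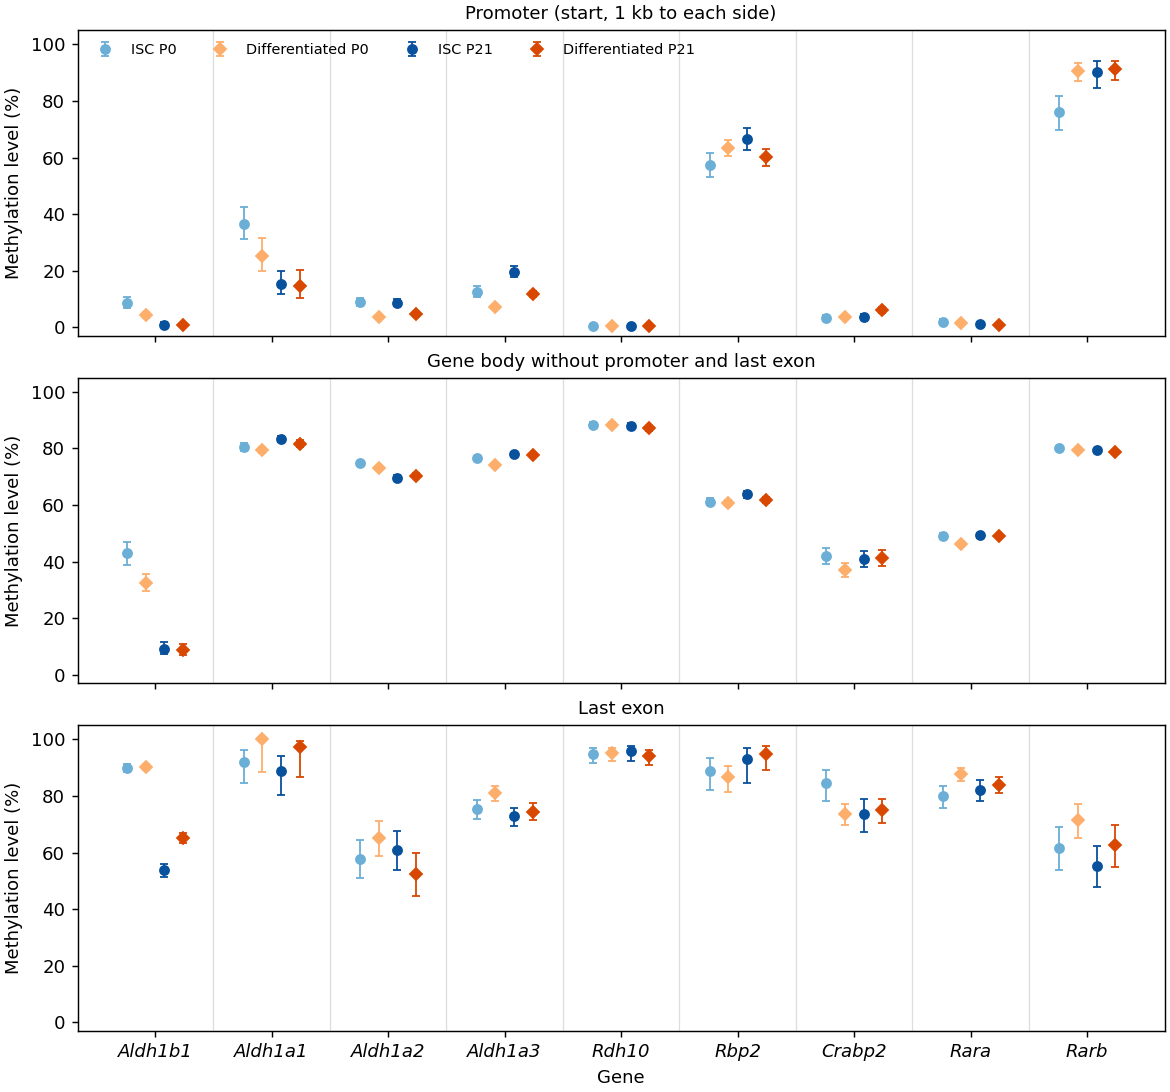
Methylation level in percent of the promoter, the gene body and the last exon of the 9 genes in the 4 libraries, with 95% Wilson intervals for counting error. Aldh1b1 differs between ages in body and last exon, the Aldh1a1 promoter falls to 15.3% and 14.7% at P21, and the Rarb promoter stands at 76.2% in ISCs at P0 against 90.4% to 91.3% in the other libraries.

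Aldh1a3 (chromosome 7, 73535778 to 73572403, reverse strand) gained methylation on both sides of its start. Its promoter had 12.5% (10.9 to 14.5%) and 7.11% (6.35 to 7.95%) at P0, and 19.5% (17.6 to 21.6%) and 11.8% (10.8 to 13.0%) at P21. Both populations were higher at P21, by 6.97 points (4.28 to 9.61, adjusted p = 1.19e-05) and 4.72 points (3.37 to 6.09, adjusted p = 2.07e-10 by Fisher's exact test over 20420 promoters), which is under the 10-point limit. With each CpG weighted equally the promoter of Aldh1a3 had 6.89% and 6.70% at P0 and 11.7% and 11.1% at P21, so the gain with age was kept and the populations lay close together. The bins nearest the start stayed low, and the gains described next lay further out on both sides. The bin shown above, centred at -898 bp from the start, had 54.0% and 44.5% at P0 and 72.1% and 74.6% at P21. A bin centred 702 bp downstream of the start had 31.5% and 49.3% at P0 and 78.0% and 75.7% at P21. Together with its neighbour (73571401 to 73571800) it had 25.6% (20.2 to 31.9%) and 39.0% (34.0 to 44.3%) at P0 and 63.7% (56.7 to 70.2%) and 58.6% (53.5 to 63.6%) at P21. A bin 1502 bp downstream rose from 48.2% and 58.1% to 75.5% and 78.3%. In each of these bins of Aldh1a3 both P21 libraries were above both P0 libraries.

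Further into Aldh1a3, losses and gains were mixed. Of its 139 bins, 4 were losses and 6 gains in ISCs, and 3 were losses and 7 gains in differentiated cells, of which 3 losses and 3 gains were shared. Over all bins 1.48% and 1.86% were losses and 1.07% and 0.992% gains. The gains of Aldh1a3 and its losses in ISCs were above that share, and its losses in differentiated cells were near it. Losses in both populations were a bin of intron 9 (73550201 to 73550400; from 74.4% and 68.2% to 32.8% and 38.2%), a bin of intron 6 (73555801 to 73556000; from 56.6% and 52.9% to 21.1% and 10.9%) and a bin overlapping the last exon (73536601 to 73536800; from 50.7% and 54.8% to 32.8% and 37.8%). The body as a whole moved by 1.39 points in ISCs and 3.61 points in differentiated cells.

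**Figure D5:**
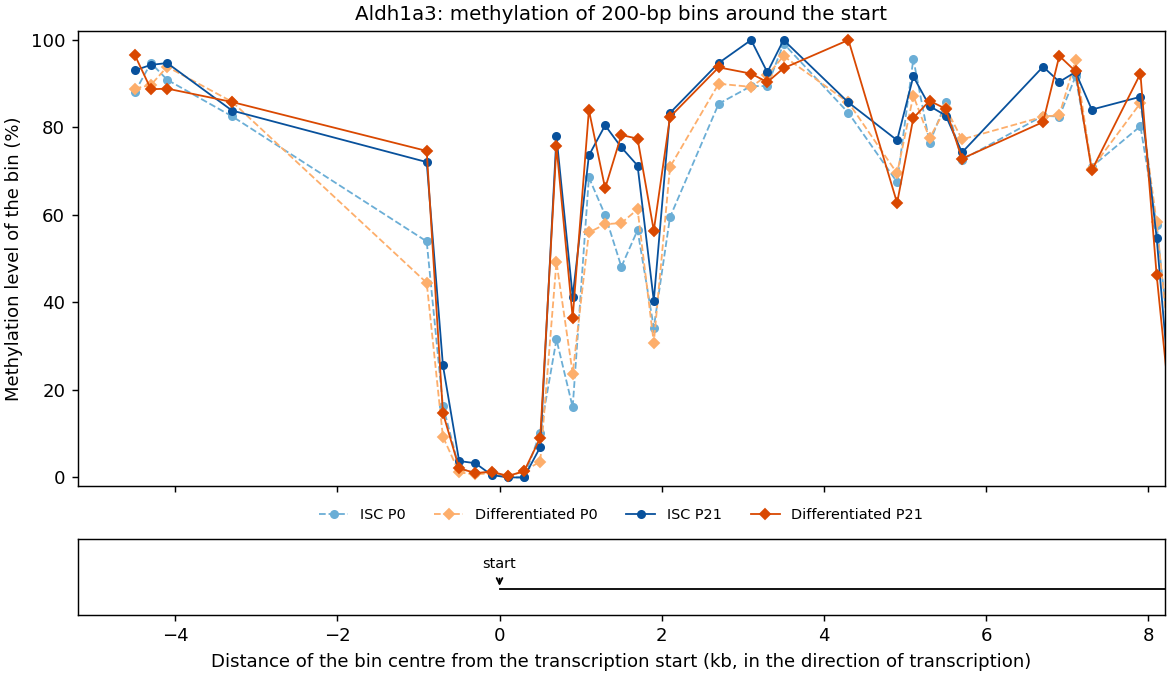
Methylation level of each tested 200-bp bin around the start of Aldh1a3 against the distance of its centre from the start in kb, for the 4 libraries, with lines joining tested bins. Bins at the start are near 0 in all libraries, and the bins centred 702 bp and 1502 bp downstream are higher in both P21 libraries than in both P0 libraries.

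Rdh10 (chromosome 1, 16095855 to 16123815) showed stable gene regions and a loss in front of the gene. Its promoter, with 191 CpGs, was between 0.327% and 0.543% in all libraries, the body between 87.1% and 88.4% and the last exon between 94.1% and 95.8%. The interval of the promoter difference in differentiated cells was -0.378 to 0.0567 points. Upstream, the adjacent bins from 16093201 to 16093600 were losses in both populations. They had 63.5% (57.2 to 69.3%) and 58.2% (53.7 to 62.5%) at P0, and 33.7% (28.1 to 39.9%) and 36.9% (32.7 to 41.4%) at P21. These bins lie within the record of the neighbouring ribosomal protein gene Rpl7 (16091376 to 16094743, reverse strand), so they cannot be assigned to Rdh10. Of the 79 bins in the window of Rdh10, 1 other was called, a gain in intron 2 in differentiated cells (16106201 to 16106400; from 59.9% to 77.5%, against 74.3% and 85.7% in ISCs). The 2 losses in each population stand beside 1.48% losses over all bins in ISCs and 1.86% in differentiated cells. For gains in differentiated cells the share of all bins was 0.992%.

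Among the binding proteins, Rbp2 (chromosome 9, 98390956 to 98410190) gained methylation over exon 2 and lost it in intron 1. The 2 bins over exon 2 (98399001 to 98399400) had 37.5% (33.8 to 41.4%) and 38.8% (35.9 to 41.7%) at P0, and 65.3% (61.3 to 69.1%) and 62.2% (59.1 to 65.2%) at P21. Again the populations had overlapping intervals at each age. In the bin shown above the change in differentiated cells was 23.9 points (adjusted p = 4.52e-16 by Fisher's exact test), and none of its 11 CpGs was lower at P21 in these cells. In intron 1 of Rbp2, the bin from 98391601 to 98391800 went from 60.0% and 65.4% to 13.2% and 10.1%. A pair of bins from 98395001 to 98395400, called as a run in ISCs, went from 83.3% and 87.1% to 55.2% and 62.1%.

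The promoter of Rbp2 (22 CpGs, no CpG island in the window) had its higher level in differentiated cells at P0 and in ISCs at P21. It had 57.4% (53.2 to 61.5%) and 63.4% (60.5 to 66.3%) at P0, and 66.7% (62.8 to 70.4%) and 60.02% (56.9 to 63.1%) at P21. ISCs changed by 9.29 points (3.63 to 14.9, adjusted p = 0.0102) and differentiated cells by -3.41 points (-7.64 to 0.825, adjusted p = 0.269 by Fisher's exact test over 20420 promoters), both under the 10-point limit. Differentiated minus ISC was 5.998 points at P0 (0.952 to 11.1, adjusted p = 0.0543 by Fisher's exact test) and -6.70 points at P21 (-11.5 to -1.76, adjusted p = 0.0264), neither past that limit. The changes differed by 12.7 points (5.63 to 19.7, adjusted p = 0.00741 by the Wald test on binomial counts). At the start of Rbp2 itself, the bin from 98390801 to 98391000 had 12.8% and 12.7% at P0, and 35.5% and 6.41% at P21. It was called between the populations at P21 (adjusted p = 2.83e-04 by Fisher's exact test), on 76 and 156 calls. The next bin, from 98391001 to 98391200, had 31.8% and 52.4% at P0 and 75.0% and 38.7% at P21, a gain in ISCs on 42 to 62 calls per library. Within the same promoter, the bin from 98390001 to 98390200 gained in both populations, from 45.9% and 51.7% to 72.7% and 76.8%. The losing bin of intron 1 from 98391601 to 98391800 also lies within 1 kb of the start, so the promoter held losses as well as gains.

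Crabp2 (chromosome 3, 87752588 to 87757298) was little changed. The promoter had 3.14% and 3.64% at P0 and 3.60% and 6.13% at P21, a difference of 2.49 points in differentiated cells (1.25 to 3.78, adjusted p = 8.93e-04 by Fisher's exact test, under the 10-point limit). Of its 41 bins, 1 loss and 1 gain were called in ISCs, both upstream, beside 1.48% losses and 1.07% gains over all bins. No bin was called in differentiated cells, beside 1.86% losses and 0.992% gains. The last exon stood at 84.5% (78.4 to 89.1%) in ISCs at P0 and between 73.6% and 75.0% in the other libraries. The difference between the populations at P0 was -10.8 points (-16.9 to -3.73, adjusted p = 0.0458 by Fisher's exact test), in a comparison that called 3.06% of last exons, and the change in ISCs was -10.9 points (-18.7 to -2.69, adjusted p = 0.0798).

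The receptor gene Rara (chromosome 11, 98789132 to 98836256) had 6 annotated starts of coding transcripts, and 195 bins of its window were tested. In ISCs 4 losses and 4 gains were called. In differentiated cells 5 losses and 17 gains were called, and 13 of the gains lay in introns, as did 117 of the 195 bins. Over all bins 1.86% were losses and 0.992% gains in differentiated cells, and 1.48% and 1.07% in ISCs. In the 17 bins the median levels were 57.6% and 46.9% at P0, and 64.2% and 68.4% at P21. ISCs were also higher at P21 in 16 of the 17 bins, with a median difference of 9.04 points, against 23.0 points in differentiated cells. In 15 of the 17 bins the P0 level was lower in differentiated cells than in ISCs. The bins were picked by their change in differentiated cells, so these medians are a description.

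Over the whole body of Rara, which also contains bins that were not called, the levels were 49.1% and 46.1% (45.5 to 46.8%) at P0, and 49.4% (48.5 to 50.2%) and 49.2% (48.4 to 49.9%) at P21. The library of differentiated cells at P0 was the low one. The change in differentiated cells was 3.03 points (adjusted p = 1.52e-08 by Fisher's exact test) and that in ISCs 0.285 points (-0.978 to 1.55). From the pooled calls, the changes differed by -2.74 points (-4.34 to -1.14, adjusted p = 0.0104 by the Wald test on binomial counts), under the 10-point limit. Among single bins, 1 of Rara in front of the main start (98796401 to 98796600) had 47.4% and 62.7% at P0 and 4% and 0% at P21 (25 and 56 calls), a loss in both populations. A bin of intron 2 (98809201 to 98809400) was the gain called in both, from 48.6% and 43.9% to 70.8% and 64.8%. The pair of bins from 98794601 to 98795000 fell in differentiated cells from 34.6% (29.6 to 39.9%) to 15.5% (11.5 to 20.5%), with 39.4% and 30.1% in ISCs, and the pair from 98801001 to 98801400 rose from 58.4% (53.2 to 63.4%) to 77.1% (72.8 to 80.9%), with 72.0% and 81.0% in ISCs.

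The promoter at the main start of Rara was at most 1.86% in any library. Among the other starts, the one at 98821726 was between 0.393% and 0.582% and the one at 98826186 between 2.91% and 4.73%, whereas the start at 98801025 had 62.8% (58.7 to 66.7%) and 51.4% (48.1 to 54.8%) at P0 and 70.9% (66.6 to 74.9%) and 71.4% (68.2 to 74.4%) at P21. The first start, at 98789132, stood between 23.5% and 26.3%.

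Rarb (chromosome 14, 17263356 to 17651381, reverse strand) is the longest of the genes, and 546 of the 1368 bins lie in its window. The transcript with the longest coding sequence starts at 17651381, and the annotation has another start of a coding transcript at 17407986. The annotated coding sequence begins at the first base of that transcript, so the record may lack the true start, and the region around 17651381 is called a promoter here by the annotation only. Its 8 CpGs had 76.2% (69.6 to 81.8%, 185 calls) and 90.5% (86.9 to 93.3%) at P0, and 90.4% (84.7 to 94.1%) and 91.3% (87.3 to 94.1%) at P21. ISCs at P0 were the low library. The change was 14.2 points (6.24 to 21.8, adjusted p = 0.00468 by Fisher's exact test) in ISCs and 0.772 points (-4.07 to 5.39) in differentiated cells. The changes differed by 13.3 points (4.31 to 22.3, adjusted p = 0.0346 by the Wald test on binomial counts). The difference between the populations at P0 was 14.3 points (7.68 to 21.5, adjusted p = 1.15e-04 by Fisher's exact test over 20420 promoters). The start at 17407986, with 76 CpGs, was between 2.17% and 4.48% in all libraries.

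In the window of Rarb, called losses in ISCs numbered 11 and gains 1, and in differentiated cells losses numbered 6 and gains 2, of which 4 losses were shared. Among the 546 bins of its window, these counts stand beside 1.48% losses and 1.07% gains over all bins in ISCs, and 1.86% and 0.992% in differentiated cells. Of the 11 losing bins 5 had only 2 CpGs. The run of 2 bins in intron 1 (17517201 to 17517600) had 60.2% (50.8 to 68.9%) and 61.2% (55.3 to 66.7%) at P0 and 17.1% (11.4 to 24.7%) and 26.9% (21.0 to 33.7%) at P21. In the bin shown above all 4 CpGs were lower at P21 in both populations. A further bin about 2 kb away (17519601 to 17519800) had 68.1% and 84.6% at P0 and 10.1% and 11.8% at P21, although on 13 and 17 calls in differentiated cells. The body of Rarb as a whole went from 80.3% to 79.3% in ISCs and from 79.6% to 78.6% in differentiated cells. Between the populations, 3 bins of Rarb were called at P0 and 2 at P21, each in an intron, and no bin at both ages. Introns held 527 of its 546 tested bins. Of all bins, differentiated cells were called lower in 0.22% and higher in 0.288% at the earlier age, and in 0.111% and 0.0711% at the later one.

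Binding elements for the receptors were then looked for within 1 kb of the 17 annotated coding starts of the 9 genes. An element was a direct repeat on either strand of a half-site, with 2 or 5 bases between its copies. The half-site was AGGTCA in its usual form, and the forms accepted beside this one were GGGTCA on the one hand, AGTTCA on the other, and also GGTTCA, with any form allowed in either copy. The form with 5 bases between was present at 0.597% of the 44018 coding starts of autosomal genes and the form with 2 bases at 1.14%. At the 9 genes the form with 5 bases was found at the CpG-rich downstream starts of Rara (chr11:98821322-98821338, forward strand) and Rarb (chr14:17408027-17408043, reverse strand), and the form with 2 bases at no start. The capitals in the Rarb element mark its CpG.
Rara element: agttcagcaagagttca
Rarb element: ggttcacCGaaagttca
The 16 CpGs within 100 bp of the Rara element were methylated in 0 of 169 and 1 of 242 calls at P0, and in 2 of 217 and 1 of 361 at P21. Those within 100 bp of the Rarb element, 6 in number, were methylated in 0 of 75 and 2 of 109 calls at P0, and in 1 of 48 and 0 of 68 at P21. With 3 counts taken as the limit that a count of 0 allows, 0 of 169 calls allows a level of up to 1.78%, 0 of 75 calls up to 4% and 0 of 68 calls up to 4.41%, and the upper Wilson limits for the same counts were 2.22%, 4.87% and 5.35%. The CpG inside the Rarb element had no methylated call among its 8 and 17 calls at P0 and its 6 and 6 calls at P21. No age difference was tested at these elements. A match to the letters does not show that a receptor binds there.

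The members' shares can be read beside 2 lists of related genes. In the windows of 38 other retinoid genes (2952 bins), losses made up 2.61% of bins in ISCs and 2.81% in differentiated cells, and gains 1.36% and 1.86%. In those of 16 other aldehyde dehydrogenases (1813 bins), losses made up 2.37% and 3.14%, and gains 1.38% and 1.60%. Over all bins losses made up 1.48% and 1.86%, and gains 1.07% and 0.992%, so both lists were above the share of all bins throughout. The 3 genes with the most bins called in the same direction in both populations were Rdh1, a retinol dehydrogenase, Scarb1, a receptor for lipoproteins that also takes up carotenoids, and Aldh18a1, an enzyme of proline synthesis. Rdh1 had 11 such bins of 43, all losses, and its promoter had 54.0% and 52.1% at P0 and 17.2% and 25.6% at P21. Scarb1 had 10 of 269, made up of 6 losses and 4 gains, and Aldh18a1 had 7 of 150, made up of 6 losses and 1 gain. These genes were picked by that count. The share of all bins called in both populations is not given here, so nothing is read from the counts.

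The genes whose last exon was most like that of Aldh1b1 over the 4 libraries, by the Euclidean distance of the levels among 10260 genes with at least 200 calls per library, were Slc15a4 (9.46 points away), Mxra8 (9.86), Pm20d1 (12.9), Slx1b (12.9) and Csnk2a1 (13.0). The nearest, Slc15a4, had 85.5% and 85.9% at P0 and 59.5% and 61.0% at P21. Each of these last exons was high in both P0 libraries and lower in both P21 libraries, and the distance rests on the same ISC change on which Aldh1b1 was chosen.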

How the data were processed

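The labels name Bismark and Bowtie and the mm9 build, and the study's methods describe paired-end bisulfite reads. The sources used here give neither tool versions nor the handling of duplicate reads. The authors deposited, per CpG cytosine, the counts of total and of methylated calls, together with their ratio as a fraction, which was not used. Between 0.465% and 0.850% of positions lay at no CpG of the mm9 reference and were left out. Strands were summed. Autosomal 200-bp bins with at least 2 CpGs and 10 calls in all 4 libraries were tested by two-sided Fisher's exact tests with Benjamini-Hochberg adjustment over all bins. Promoters, bodies and last exons with at least 50 calls in each library were tested likewise over all genes. The promoter was 1 kb to each side of the start of the transcript with the longest coding sequence, the body the rest of the gene up to the last exon, and parts of the last exon in the promoter were left out. Differences between 2 changes used a two-sided Wald test with 0.5 added to each count. A CpG island was a region of windows of 500 bp with at least 25 CpGs. Bins with more than 15 points and regions with more than 10 points were called at an adjusted p below 0.05. Groups came from the sample labels, with 1 library each, so there is no spread between animals.

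The members and lists were chosen with earlier results of these data known. Named were the 9 genes with their regions and runs of called bins, the 3 genes of both lists with the most bins called in the same direction in both populations, and the 5 genes nearest to Aldh1b1; single bins described beyond these were picked after their values were seen. Alternatives were other minima of calls and CpGs, other limits, shifted bins, thinned calls, deep CpGs left out, single strands, equal weights for the CpGs of a region and another promoter. On simulated data with the observed depths, between 39.7% (ISC P21 minus P0) and 53.1% (differentiated P21 minus P0) of 40000 bins of intermediate level changed by 30 points were recovered over the 4 comparisons of 4076373 bins. The simulated calls were independent, unlike the real ones. Between the populations fewer bins were called than the 40000 changed (8972 lower and 11728 higher in differentiated cells at P0, 4514 and 2898 at P21). Recovery there can thus be lower. Python 3.11.15, NumPy 2.4.6, SciPy 1.17.1, pandas 2.3.3 and numba 0.67.0 were used.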

Additional observations from a re-analysis of the deposited data

Results flagged for a closer look

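The change with age differed between the populations at 2 promoters, by a two-sided Wald test of the difference between the changes over 20420 promoters. At the Rbp2 promoter the change in ISCs minus that in differentiated cells was 12.7 points (95% interval 5.63 to 19.7, adjusted p = 0.00741 on binomial counts), with changes of 9.29 and -3.41 points. At the Rarb promoter, which has 8 CpGs and lies at an annotated start that may be incomplete, since the coding sequence begins at its first base, it was 13.3 points (4.31 to 22.3, adjusted p = 0.0346 on binomial counts), with changes of 14.2 and 0.772 points. With each CpG weighted equally, and without a test, the changes were 5.74 and -6.61 points at Rbp2 and 17.5 and 2.31 points at Rarb. Over all promoters 2.54% passed the same limits, and 8 genes were looked at here, with Aldh1b1 left out because it was chosen on its change in ISCs.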

How the results depend on the processing

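No paired analysis was possible because each group had 1 library, and for the same reason no library could be left out. Of the 82 recomputed values of the main results 56 stayed within the limits set for them. Most of the 82 are counts of called bins or regions, which have no direction that could reverse. Leaving out deep CpGs changed none of the main values, so that alternative could not move them. The change of the Aldh1b1 last exon was also identical with at least 10 calls per CpG, with at least 200 calls and with the other promoter. These count among the 56 and say nothing further about it. The change of the Aldh1b1 last exon stayed a loss in every alternative. In the order ISC P21 minus P0, differentiated P21 minus P0, differentiated minus ISC at P0 and at P21, the main counts of called member bins were 73, 78, 6 and 6. They became 35, 25, 2 and 1 with more than 30 points, where 0.803% of all bins were losses and 0.414% gains in ISCs and 0.811% and 0.249% in differentiated cells, and 0.0767% and 0.106% between the populations at P0 and 0.0440% and 0.0288% at P21. With 15 points and no test they were 239, 222, 125 and 137, beside 7.14% and 6.31% of all bins in ISCs and 7.08% and 4.92% in differentiated cells, and 5.17% and 5.39% between the populations at P0 and 5.26% and 4.21% at P21. With calls thinned to the lowest library they were 52, 45, 2 and 1, beside 0.972% and 0.644%, and 0.867% and 0.383%, and between the populations 0.0409% and 0.0531% at P0 and 0.0236% and 0.0146% at P21. The ISC counts include the bins of Aldh1b1 on which it was chosen. With 1 CpG per bin, an alternative chosen after the data were seen which counts no read at several CpGs, they were 13, 29, 0 and 0. With at least 4 CpGs the ISC count was 40 of 504 bins, beside 2.13% losses and 2.04% gains over all bins. Of these 40, the other 8 genes held 10 losses and 13 gains, in 476 bins. Losing bins of Aldh1b1 in ISCs and differentiated cells, 26 and 22, became 14 and 9 with more than 30 points. In ISCs they became 17 of 28 bins with at least 4 CpGs and 10 of 46 with 1 CpG per bin, where differentiated cells had 15. The change of the Aldh1b1 last exon in ISCs was -32.4 points on the forward and -41.0 points on the reverse strand alone, and in differentiated cells it ranged from -25.9 to -23.9 points over all alternatives. Of the 26 member regions tested, 4 were called in ISCs, of which 2 were regions of Aldh1b1, and 3 in differentiated cells, beside 4.16% and 3.64% of all promoters, 2.45% and 2.45% of bodies and 6.42% and 6.11% of last exons. They became 8 in ISCs with more than 5 points and 2 with at least 200 calls, and 2 and 1 when Aldh1b1 was not counted. No share over all genes is given at more than 5 points or at least 200 calls, so nothing is read from those counts. With each CpG of a region weighted equally, also chosen after the data were seen and without a test, the changes of the called regions kept their direction, and that of the Aldh1a1 promoter in differentiated cells went from -10.6 to -23.0 points. Most CpGs of that promoter had few calls in these cells. The Aldh1a1 and Rarb promoters were not tested with at least 200 calls, since a library had fewer.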
